A study of Homo sapiens with 2 samples.

Results

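SKOV3 is an established human ovarian adenocarcinoma cell line, and 10 genes that make, break down or sense prostaglandins were examined in it after stable RUNX2 knockdown. The genes were chosen by name for their roles: PLA2G4A, PTGS1, PTGS2, PTGES, PTGES2, PTGIS, HPGD, PTGER2, PTGER3 and PTGER4. Earlier results of these data were known when the choice was made. All 10 were found among the 17240 genes that the array's accessions named, on 15 of its 41000 gene probes, and every one of the 15 is described. RNA of the shRNA-RUNX2 knockdown clone cl-sh3 was set against RNA of a control (mock-transfected) SKOV3 clone in 2 hybridizations with exchanged dyes. In hybridization 1 cl-sh3 carried Cy5, and in hybridization 2 it carried Cy3. Both clones were made with lentiviral pLKO.1-puro, carrying the RUNX2 shRNA in cl-sh3 and a scramble sequence in the control, both were selected with puromycin at 0.5 µg/ml, and SKOV3 cells were grown with 10% fetal calf serum. Each side is 1 clone and the hybridizations are a technical repeat of the same RNAs, so they form 1 replicate, no test between the clones was possible and no p-value is given. A difference caused by the shRNA and a difference between any 2 clones cannot be told apart here.

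Prostaglandins are local lipid signals. Cytosolic phospholipase A2 (PLA2G4A) releases arachidonic acid from membranes, the cyclooxygenases COX-1 (PTGS1) and COX-2 (PTGS2) turn it into prostaglandin H2, and terminal synthases (PTGES and PTGES2 for prostaglandin E2, PTGIS for prostacyclin) finish the product. The dehydrogenase HPGD inactivates prostaglandins, and the receptors EP2, EP3 and EP4 (PTGER2, PTGER3 and PTGER4) sense prostaglandin E2 at the cell surface. In carcinomas, among them epithelial ovarian carcinoma (EOC), COX-2 and prostaglandin E2 are known for their part in growth, motility and inflammation.

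RUNX2 is a transcription factor that binds a short core in DNA, written here as TGTGGT, with TGCGGT as a common variant. The promoters of the cyclooxygenases are shown because these enzymes start prostaglandin synthesis, and PTGES2 windows 1 and 2 because they alone among the windows at hand held a RUNX core. The windows are those of RefSeq on GRCh38.p14, from 250 bases before the annotated start to 50 bases after it, read 5′ to 3′ in the direction of the gene, and 12 of them belonged to 8 of the 10 genes. Of PTGIS and PTGER3 no promoter is shown. Capitals mark matches, on either strand, to these RUNX cores, to the core of the cAMP response element (TGACG) or to the TATA box (TATAAA). The PTGS1 windows lie at chr9:122370283-122370582 and chr9:122375052-122375351 on the plus strand, the PTGS2 window at chr1:186680374-186680673 on the minus strand, and the PTGES2 windows at chr9:128128391-128128690 and chr9:128128095-128128394 on the minus strand. A further PTGES2 window, window 3, had no match to any of these motifs and is not shown.
PTGS1, window 1: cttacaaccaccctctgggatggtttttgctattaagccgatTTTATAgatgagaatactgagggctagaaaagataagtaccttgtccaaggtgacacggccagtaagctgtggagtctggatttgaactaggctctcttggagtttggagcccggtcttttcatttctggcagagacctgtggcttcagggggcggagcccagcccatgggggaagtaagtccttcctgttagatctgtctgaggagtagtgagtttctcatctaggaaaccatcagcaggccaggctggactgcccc
PTGS1, window 2: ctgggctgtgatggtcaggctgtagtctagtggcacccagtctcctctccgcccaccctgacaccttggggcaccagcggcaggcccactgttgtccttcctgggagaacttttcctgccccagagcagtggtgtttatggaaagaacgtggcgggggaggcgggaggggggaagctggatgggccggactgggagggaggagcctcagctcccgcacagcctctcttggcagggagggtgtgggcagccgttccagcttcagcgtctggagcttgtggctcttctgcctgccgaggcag
PTGS2: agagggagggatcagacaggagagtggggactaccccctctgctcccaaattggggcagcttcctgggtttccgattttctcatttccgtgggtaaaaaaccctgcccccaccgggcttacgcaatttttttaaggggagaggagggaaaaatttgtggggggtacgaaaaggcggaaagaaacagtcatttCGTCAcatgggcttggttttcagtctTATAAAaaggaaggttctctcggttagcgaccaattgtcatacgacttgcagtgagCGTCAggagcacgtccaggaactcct
PTGES2, window 1: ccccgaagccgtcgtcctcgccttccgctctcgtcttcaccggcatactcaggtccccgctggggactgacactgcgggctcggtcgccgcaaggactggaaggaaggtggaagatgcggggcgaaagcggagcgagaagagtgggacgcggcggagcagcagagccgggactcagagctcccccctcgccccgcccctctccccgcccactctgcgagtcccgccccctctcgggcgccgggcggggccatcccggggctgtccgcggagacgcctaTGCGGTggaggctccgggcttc
PTGES2, window 2: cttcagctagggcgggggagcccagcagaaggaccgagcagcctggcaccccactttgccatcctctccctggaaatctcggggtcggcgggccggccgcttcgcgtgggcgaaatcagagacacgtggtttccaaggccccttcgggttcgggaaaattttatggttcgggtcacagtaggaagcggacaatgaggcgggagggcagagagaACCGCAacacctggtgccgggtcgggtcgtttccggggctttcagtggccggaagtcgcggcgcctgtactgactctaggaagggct

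The PTGS2 window held a TATA box whose first base lay at -32, with the annotated start counted as position 1, and the reverse complement of TGACG at -58 and at 25. In PTGS1, the only match was a TATA box on the opposite strand in window 1, at -208, and window 2 had no match. TGCGGT was found in PTGES2 window 1 at 29 and, on the opposite strand, in PTGES2 window 2 at -37. TGTGGT was in 0 of the 12 windows and TGCGGT in 2, against 13.1% and 7.29% of all 35116 RefSeq windows of the same length. TGACG was in 3 of the 12 (1 window each of PTGS2, HPGD and PTGER2) and in 24.6% of all windows. TATAAA was in 2 of the 12 and in 11.5% of all. These matches describe letters in short windows, and whether any protein binds them was not tested.

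A probe was kept when the same RNA was flagged by the scanner software as well above background in both hybridizations, which 36060 of the 41000 probes were. Of the 15 prostaglandin probes, 12 were kept, and they covered 9 of the 10 genes. The exception was PTGES. A flag is a low bar: 7 of the 10 genes had a probe flagged in all 4 readings (each RNA in each hybridization), and the same was true of 7 of 8 matched genes that mark leukocytes, endothelium or fibroblasts. Each reading was therefore also set against 153 negative control spots. Their highest signal was 191 (control) and 200 (cl-sh3) in Cy3, and 379 (cl-sh3) and 342.5 (control) in Cy5. Signals are median pixel values in scanner units, and those of different dyes cannot be compared before normalization.

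The labelled identity and the knockdown were looked at first. All 7 epithelial marker genes on the list (EPCAM, KRT7, KRT8, KRT18, KRT19, MUC1 and CDH1) lay above the highest negative control spot in all 4 readings, as did 4 of 6 ovarian carcinoma markers. The epithelial genes were also higher in cl-sh3 in both hybridizations, 7 of 7 against 30.9% of all genes on the array. CDH1 was the lowest of them, at 0.01 and 0.66. The median log2 ratio of the 7 was 0.49 (0.50 and 0.66 in hybridizations 1 and 2). None reached 2-fold in both, a size met by 0.656% of all genes. By their brightest probes, the ovarian carcinoma markers did not share that direction. Of the 6, 2 were lower in both (ERBB2 at -0.86 and -0.45, FOLR1 at -0.30 and -0.18), 2 higher and 2 of opposite sign, with a median of -0.05. A dimmer ERBB2 probe, also kept, went the other way, at 0.26 and 0.18. Of the 8 matched markers of other cell types, 2 were lower in both (the collagen gene COL1A2 at -0.37 and -0.23, and DCN at -0.10 and -0.18). Another 2 were higher and 4 of opposite sign, with a median of 0.01. A dimmer COL1A2 probe, also kept, gave 0.03 and 0.01. Of all genes on the array, 28.4% were lower in both, 30.9% were higher and 40.7% had opposite signs. Whether the shifts of the marker genes have a part in the prostaglandin genes was not tested. The brightest RUNX2 probe was 3.18-fold lower in cl-sh3 (log2 ratios -2.04 and -1.30), while a dimmer probe of the same accession gave 0.17 and -0.13. The probe of another RUNX2 transcript, NM_001015051, gave -0.29 and -0.17.

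None of the 9 prostaglandin genes with a kept probe reached 2-fold between the clones in both hybridizations. PTGES had no kept probe, and PTGS2 and PLA2G4A were read near the detection limit, so this says little about those genes. With each gene represented by its brightest kept probe, 5 of 9 genes were lower in cl-sh3 in both hybridizations (PLA2G4A, PTGS1, PTGS2, HPGD and PTGER2), 0 were higher in both, and 4 had opposite signs (PTGES2, PTGIS, PTGER3 and PTGER4). Their median log2 ratio was -0.04, with -0.04 and -0.05 in the hybridizations, beside 0.01 for genes by their brightest probe over the whole array. The mean ratios ran from -0.28 for PTGS1 to 0.14 for PTGES2. In the whole array, 28.4% of 16153 genes were lower in both hybridizations, 30.9% were higher in both and 40.7% had opposite signs. A difference of at least 2-fold in both was found for 0.656% of all genes and 0 of these 9, and one of at least 1.5-fold for 4.21% of all genes and again 0 of 9. With no background correction 2 of the 9 genes were lower in both hybridizations instead of 5, and hybridizations 1 and 2 taken alone put 6 and 8 of them below 0. Because the RNA was taken from whole cultures, fewer cells that express a gene and less RNA per cell cannot be told apart.

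Counted by probe, 5 of the 12 kept probes were lower in both hybridizations, 1 was higher in both and 6 changed sign, and none reached 2-fold in both, a size met by 0.516% of all kept probes. At 1.5-fold in both there were again 0 of 12, against 3.67% of all. Any drop was seen in both hybridizations for 27.3% of all kept probes, any rise for 29.8% and a change of sign for 42.9%. The 2 hybridizations of any kept probe differed by a median of 0.22 on the log2 scale, and 95% of the probes stayed within a difference of 0.63. All 15 prostaglandin probes were within that range. The plot of ratios by probe shows how much of each value the dye exchange moved.

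**Figure D1:**
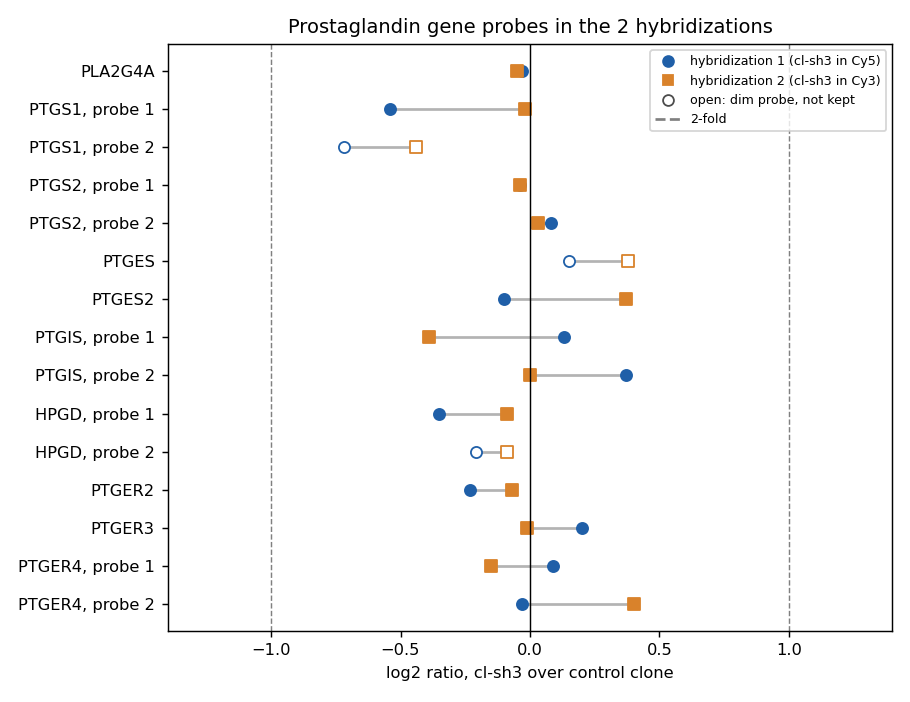
Log2 ratio of cl-sh3 over the control clone (x axis) for the 15 probes of the 10 prostaglandin genes (y axis; probe 1 is the brighter), in hybridization 1 (blue circles) and 2 (orange squares), joined by a grey line; open symbols are the 3 dim probes that were not kept, and dashed lines mark 2-fold. No probe reached a dashed line, and the lowest values were those of PTGS1 probe 2 at -0.72 and -0.44.

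PLA2G4A, which releases the arachidonic acid, had ratios close to 0 on a probe near the detection limit. Its probe (A_23_P11685, NM_024420) is printed in 10 spots on each array. The mean signal over all 10 spots was 388 in Cy5 and 165 in Cy3 for cl-sh3, and 161 in Cy3 and 342 in Cy5 for the control. Only the cl-sh3 mean in Cy5 passed the highest negative control spot, at 379. That mean included an outlier-flagged spot of 511, and the median of the 10 spots, 374.5, did not pass. The 9 spots without an outlier flag gave log2 ratios of -0.03 ± 0.08 (SD) in hybridization 1 and -0.05 ± 0.11 in hybridization 2, from -0.20 to 0.16 in all, with 6 of 9 below 0 each time. These spots share their RNA and array, so the SD covers spotting and reading error only. The control RNA was flagged on 10 of 10 spots in Cy3 and on 1 of 10 in Cy5. The gene was thus read near the detection limit, and its ratio lay within the spread of its own spots around 0.

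PTGS2, the inducible cyclooxygenase, was also read near the detection limit, with ratios within spot error of 0. Because the normexp offset draws dim probes towards 0, such ratios do not show that PTGS2 or PLA2G4A was level in the clones. Its brighter probe (A_24_P250922, NM_000963), again in 10 spots, read 391 in Cy5 and 176 in Cy3 for cl-sh3, and 161 in Cy3 and 347 in Cy5 for the control. Both Cy5 readings were just above the highest negative control spot and both Cy3 readings were below it. The log2 ratio over the spots was -0.04 ± 0.14 (SD, 10 spots) in hybridization 1, from -0.30 to 0.15, and -0.04 ± 0.13 in hybridization 2, from -0.26 to 0.23. A dimmer PTGS2 probe (A_24_P77008) gave 0.08 and 0.03, with signals of 339 and 135 for cl-sh3 and 126 and 267 for the control in the same order. None of these 4 signals passed the highest negative control spot. The probes of this gene differed by 0.10, less than the median distance of 0.16 between the 2 brightest kept probes of the 5347 RefSeq accessions that had more than 1. PTGS2 and PLA2G4A are neighbouring protein-coding genes on chromosome 1.

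PTGS1, the constitutive cyclooxygenase, was the lowest of the 9 genes, and the size of its difference rested on the hybridization, the probe and the background correction. The brighter probe (A_23_P216966, NM_000962) read 454 in Cy5 and 282 in Cy3 for cl-sh3, and 272 in Cy3 and 410 in Cy5 for the control. All 4 readings were above the highest negative control spot. The log2 ratios were -0.54 (hybridization 1) and -0.02 (hybridization 2). Their mean of -0.28 corresponds to 1.21-fold less in cl-sh3, and 13.8% of all kept probes had a lower mean. Nearly all of that mean came from hybridization 1.

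The dimmer PTGS1 probe (A_24_P64167) was lower in both hybridizations, at -0.72 and -0.44, a mean of -0.58. It was not kept: cl-sh3 and the control were each flagged in Cy3 only, and none of its 4 signals (284 and 140 for cl-sh3 in Cy5 and Cy3, 147 and 340 for the control in Cy3 and Cy5) passed the highest negative control spot. Each RNA was missed only when it carried Cy5, where the local background was 173 and 159, against 43 and 46 in Cy3. The probe's ratio moved with the way background was taken off. Its mean log2 ratio was -0.33 with no background correction, -0.92 with normexp at offset 0 and -1.27 in the log ratios of the scanner software, where hybridizations 1 and 2 gave -1.57 and -0.97. The brighter probe moved from -0.14 with no correction to -0.46 in the software's ratios. Both probes kept a negative mean in all of these, and neither reached 2-fold in both hybridizations in any.

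**Figure D2:**
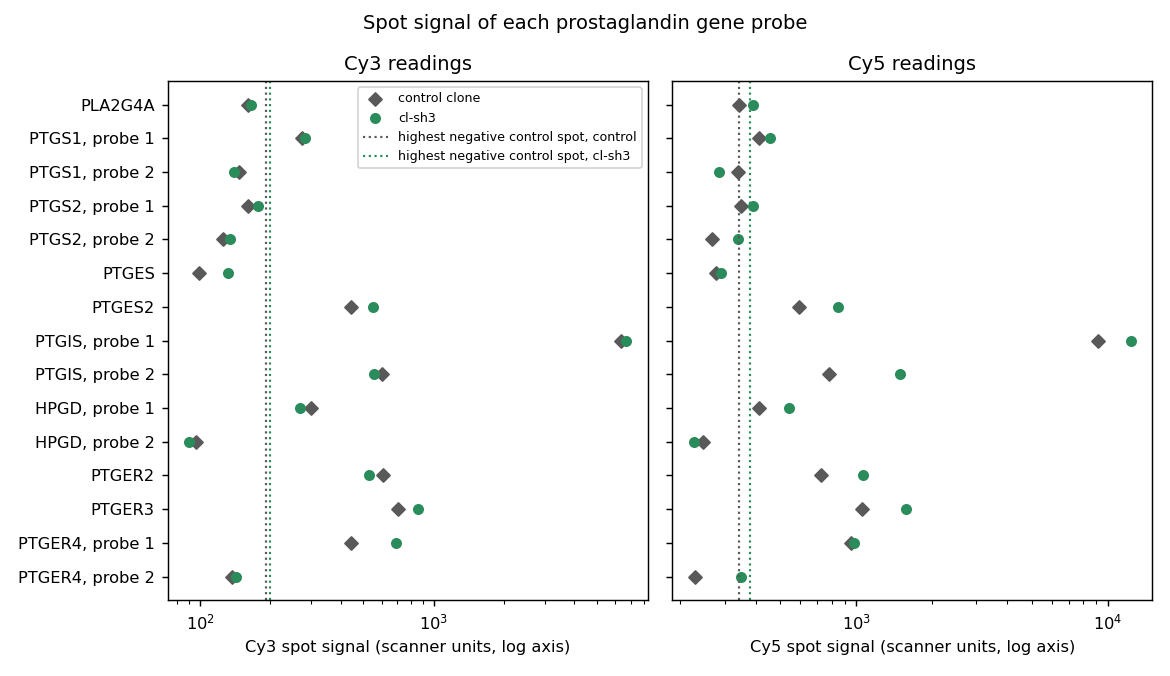
Spot signal of the 15 prostaglandin probes in scanner units (log x axes), in Cy3 (left) and Cy5 (right), for the control clone (grey diamonds) and cl-sh3 (green circles), before normalization; dotted lines mark the highest of 153 negative control spots for each RNA. The probes of PTGES2, PTGIS, PTGER2 and PTGER3 and the brighter probes of PTGS1, HPGD and PTGER4 lie to the right of the lines in both panels, and the brightest PTGIS probe reads 6355 to 12352.

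PTGES, the inducible prostaglandin E synthase, was not read above the highest negative control spot in either clone. Its probe (A_24_P403417, NM_004878) read 291 and 132 for cl-sh3 in Cy5 and Cy3, and 99 and 277 for the control in Cy3 and Cy5. Only cl-sh3 in hybridization 2 was flagged as well above background. The log2 ratios of 0.15 and 0.38 are given for completeness, and no fold is drawn from them.

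PTGES2, a constitutive prostaglandin E synthase, was above the highest negative control spot in all 4 readings and changed sign with the dyes. Its probe (A_24_P106953, NM_025072) read 850 and 549 for cl-sh3 in Cy5 and Cy3, and 444 and 593 for the control in Cy3 and Cy5. The log2 ratios were -0.10 in hybridization 1 and 0.37 in hybridization 2. After normalization, the RNA labelled with Cy3 was thus the higher in both. The RUNX core variant was in 2 of the 3 promoter windows of this gene, those printed above.

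PTGIS, prostacyclin synthase, was read far above the negative controls by both of its probes. The brighter one (A_24_P48723, NM_000961) had signals of 12352 and 6680 for cl-sh3 in Cy5 and Cy3, and of 6355 and 9169 for the control in Cy3 and Cy5. Its log2 ratios were 0.13 and -0.39, so that the RNA in Cy5 was the brighter each time. The dimmer probe (A_23_P91262) read 1501 and 556 for cl-sh3 and 599 and 782 for the control in the same order. Its log2 ratio was 0.37 in hybridization 1 and, rounded, 0.00 in hybridization 2. The means of the probes, -0.13 and 0.18, had opposite signs and lay 0.31 apart, within the 0.64 that 95% of accessions with several kept probes did not pass. A direction for PTGIS therefore depended on the probe.

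HPGD, which starts prostaglandin inactivation, came next to PTGS1 at the lower end. Its brighter probe (A_23_P213050, NM_000860) read 541 and 268 for cl-sh3 in Cy5 and Cy3, and 299 and 410 for the control in Cy3 and Cy5, all above the highest negative control spot. The log2 ratios were -0.35 and -0.09, a mean of -0.22, which 17.2% of all kept probes were below. As for PTGS1, hybridization 1 gave the larger part. With no background correction hybridization 2 turned to 0.10, and the scanner software's ratios were -0.36 and -0.34. The dimmer HPGD probe (A_24_P71904) was flagged in none of the 4 readings. Its ratios of -0.21 and -0.09 carry no fold, and they became -1.39 and 0.00 in the software's values.

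Among the prostaglandin E2 receptors EP2, EP3 and EP4, the mean log2 ratios of the probes ran from -0.15 to 0.19. The quartiles of this mean over all kept probes were -0.13 and 0.13. PTGER2 (A_23_P151710, NM_000956) encodes EP2, a receptor that raises cyclic AMP. It read 1067 and 531 for cl-sh3 in Cy5 and Cy3 and 606 and 722 for the control in Cy3 and Cy5. It was the only receptor lower in both hybridizations (log2 ratios -0.23 and -0.07).

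PTGER3, the gene of EP3, is represented by 1 of its transcripts (A_24_P945365, NM_198715). The signals were 1577 and 860 for cl-sh3 in Cy5 and Cy3 and 705 and 1058 for the control in Cy3 and Cy5. Its log2 ratios, 0.20 and -0.01, gave a mean of 0.10 with no common sign.

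PTGER4 encodes EP4, which like EP2 raises cyclic AMP. The brighter probe (A_23_P435394, NM_000958) read 979 and 692 for cl-sh3 in Cy5 and Cy3, and 442 and 958 for the control in Cy3 and Cy5. The ratios were 0.09 and -0.15. The dimmer probe (A_23_P148047), with signals of 347 and 143 for cl-sh3 and 137 and 229 for the control, had no reading above the highest negative control spot. It gave -0.03 and 0.40, and its mean of 0.19 became 0.55 in the software's ratios and 0.11 with median centring. As with PTGS1 and HPGD, the dimmer probe of the pair was moved more by the processing than the brighter one.

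**Figure D3:**
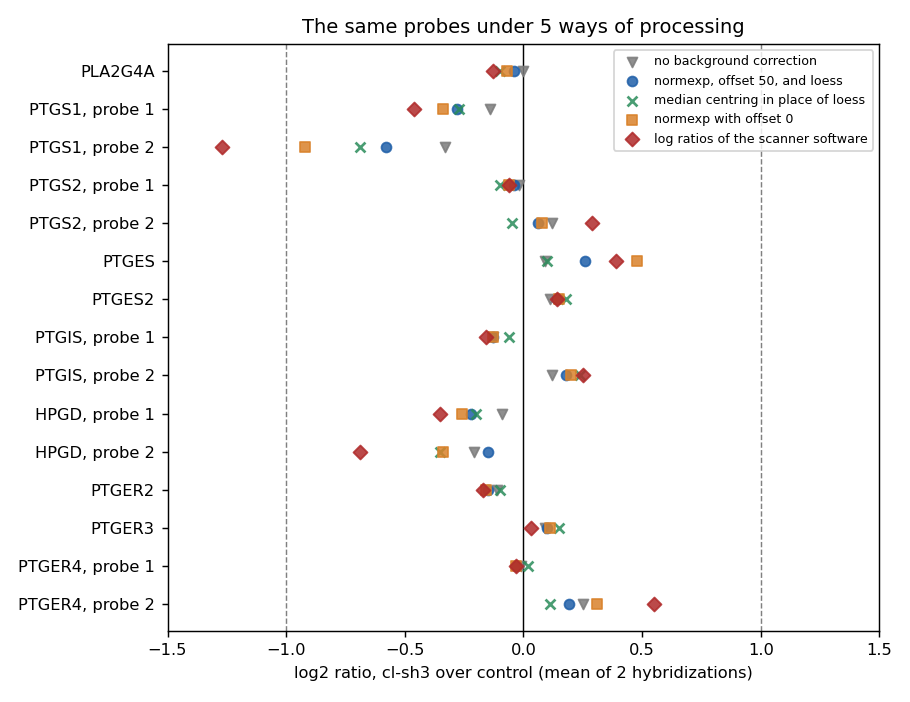
Mean log2 ratio of cl-sh3 over control (x axis) for each of the 15 prostaglandin probes (y axis) under 5 ways of processing the same arrays, each shown by its own symbol; dashed lines mark 2-fold. PTGS1 probe 2 spreads from -0.33 to -1.27 and HPGD probe 2 from -0.15 to -0.69, while PTGES2 stays between 0.11 and 0.18 and PTGER2 between -0.17 and -0.10.

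Of the 10 genes, 5 had a pair of probes, and the pair pointed the same way on average for PTGS1 (-0.28 and -0.58) and HPGD (-0.22 and -0.15). It pointed opposite ways for PTGS2 (-0.04 and 0.06), PTGIS (-0.13 and 0.18) and PTGER4 (-0.03 and 0.19). The distance between the probes ran from 0.07 for HPGD to 0.31 for PTGIS. After normalization, 6 kept probes changed sign. The RNA in Cy5 was the higher for PTGIS (both probes), PTGER3 and the brighter PTGER4 probe. The RNA in Cy3 was the higher for PTGES2 and the dimmer PTGER4 probe.

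Related genes were described from lists of 56 gene names, of which 52 had a kept probe. The lists also hold the lipoxygenase branch and RNA-binding proteins known to act on PTGS2 mRNA, which are not part of prostaglandin synthesis. By their brightest probe, 9 of the 52 genes were lower in cl-sh3 in both hybridizations, 20 were higher and 23 had opposite signs. Their median was 0.05. At 2-fold in both hybridizations there were 0, and at 1.5-fold 3 (PTGR1, TIA1 and ZFP36L1, all lower). Of these, TIA1 and ZFP36L1 are genes of RNA-binding proteins. Over the whole array, 28.4% of genes were lower in both, 30.9% were higher and 40.7% had opposite signs. There, 0.656% reached 2-fold in both and 4.21% reached 1.5-fold. The other phospholipases A2, which like PLA2G4A release fatty acids or act on related lipids, had 13 kept genes with a median of 0.08, 7 of them higher in both, from PLA2G4C at -0.08 to PLA2G12A at 0.34 (0.26 and 0.41). The other prostanoid synthases had a median of 0.09 over 7 genes, with PRXL2B highest at 0.30 (0.24 and 0.37).

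PTGES3, a co-chaperone of HSP90 also described as a cytosolic prostaglandin E synthase, was the lowest synthase and the only one with probes past 2-fold. Its 4 probes share the accession NM_006601. The brightest read 63668 and 47272 for cl-sh3 in Cy5 and Cy3 and 51537 and 59777 for the control in Cy3 and Cy5, and its log2 ratios were -0.80 and -0.24. The other 3 probes gave -1.28 and -1.18, -1.71 and -1.25, and -1.26 and -1.32, between 2.35-fold and 2.79-fold lower on average. These 3 stayed past 2-fold in both hybridizations under every alternative processing tried. Represented by its brightest probe, PTGES3 was not counted as changed. The RefSeq table lists 5 PTGES3 pseudogenes, and whether any of these probes also reads them was not tested.

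**Figure D4:**
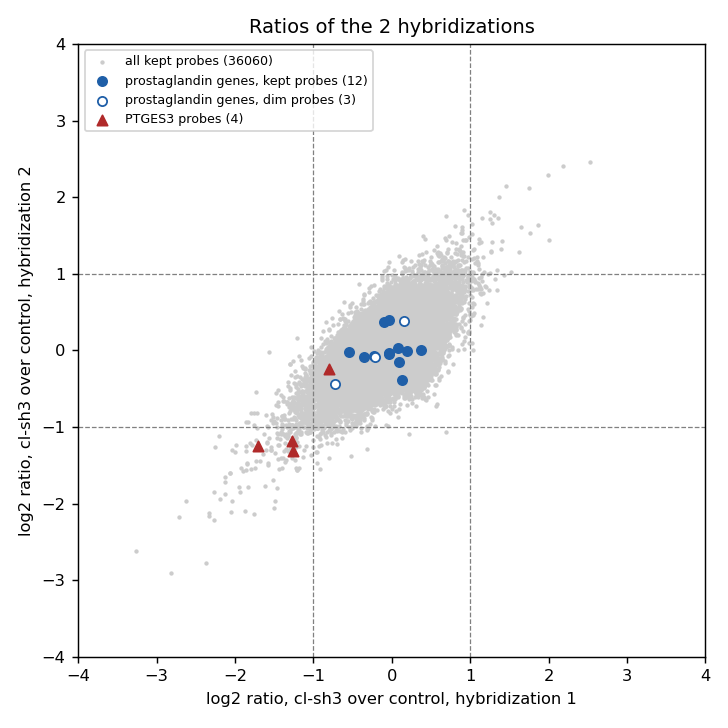
Log2 ratio of cl-sh3 over control in hybridization 1 (x axis) and hybridization 2 (y axis) for all 36060 kept probes (grey), the 12 kept (filled blue) and 3 dim (open blue) prostaglandin probes and the 4 PTGES3 probes (red triangles); dashed lines mark 2-fold. The prostaglandin probes lie inside the 2-fold square, and 3 of the 4 PTGES3 probes lie beyond its lower left corner.

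In transport and breakdown, 4 of 6 genes were lower in both hybridizations, against 28.4% of all genes on the array. Of these 6 genes, 0 were higher in both, against 30.9% of all, and their median was -0.14. PTGR1, a reductase that acts on prostaglandin metabolites and leukotriene B4, was the lowest at -0.95 and -0.61, a difference of at least 1.5-fold in both. PTGR2 was the highest, at -0.15 and 0.26. The list of other prostanoid receptors also holds PTGFRN, which encodes an inhibitor of the prostaglandin F receptor and is no receptor itself. Its 7 genes centred on 0.00 and 5 of them had opposite signs, from PTGER1 (the gene of EP1) at 0.09 and -0.35 to PTGFRN at 0.22 and 0.09. Among the prostanoid receptors measured there was thus no gene at 1.5-fold in both hybridizations, as for PTGER2, PTGER3 and PTGER4.

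**Figure D5:**
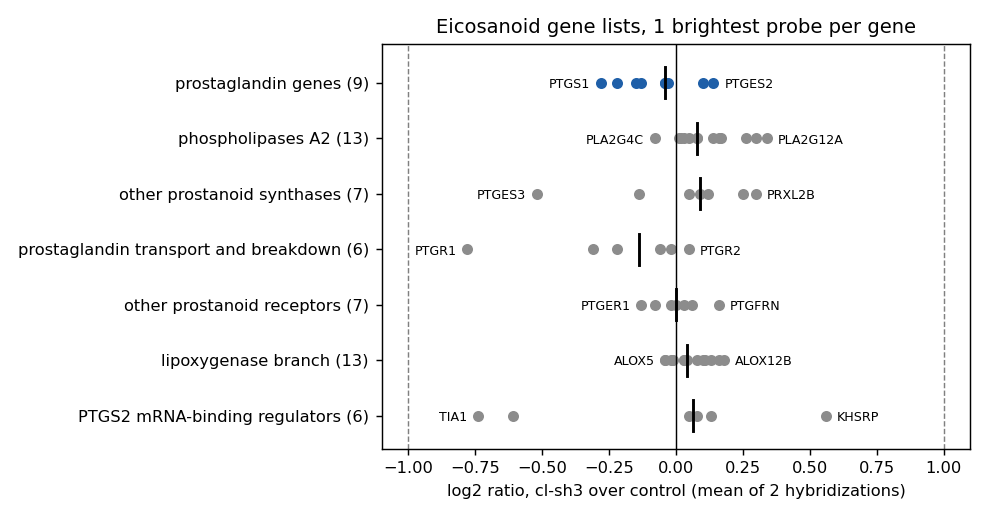
Mean log2 ratio of cl-sh3 over control (x axis), 1 point per gene by its brightest kept probe, for the 9 measured prostaglandin genes (blue) and the 6 lists of related genes (grey; number of genes in parentheses), with the lowest and highest gene of each named; black ticks are medians and dashed lines mark 2-fold. The receptor list includes PTGFRN, a receptor inhibitor. The medians lie between -0.14 and 0.09, and the lowest gene is PTGR1 at -0.78.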

How the data were processed

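Total RNA of both clones (0.5 µg per labelling) was hybridized to 2-colour Agilent whole human genome arrays. The authors deposited unnormalized spot intensity values with local backgrounds and flags, and a log10 ratio of Cy5 over Cy3, per the file headers from Feature Extraction 10.5.1.1 (8.5.1.1 in the submitters' processing notes). A deposited table of log10 ratio values equals the latter within 0.005. Files hold no mean pixel values, so the background of median signals was removed by limma 3.58.1 (R 4.3.3) with its normexp method at an offset of 50. Control spots and outlier-flagged spots (153 and 144) were left out, loess was applied within each array, replicate spots were averaged by probe, and all values were expressed as the log2 of cl-sh3 relative to the control. The offset draws dim probes towards 0. No spot was saturated. An RNA counted as well above background when at least 50% of a probe's spots were flagged so. A call required at least 2-fold, in the same direction, in both hybridizations. Precision is limited by the number of arrays, which show technical error alone.

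Accessions were named through the RefSeq table of GRCh38.p14, without versions (18023 of 19228 RefSeq accessions matched). The accession NM_004348 was named RUNX2 through the study's supplementary gene list. The genes, the lists and the rule for naming were chosen with earlier results of these data known. The rule named every prostaglandin gene with each probe, each RUNX2 probe, and the highest and lowest gene of each list. PTGES3's dimmer probes, the dimmer probes of the RNA-binding protein genes and ZFP36L1 were described beyond that rule after their values were seen. So were the single marker genes with values, ERBB2 and COL1A2 with a dimmer probe. On simulated data with 41000 probes, 200 of 200 probes changed by 2 on the log2 scale were recovered, with 0 false calls. The changed probes were drawn from brighter ones only, so the simulation does not cover dim probes or changes near 2-fold. Alternatives were another offset, no background correction, median centring, Aquantile, flagged spots kept, other detection filters, the deposited ratios, each hybridization alone, the mean of all probes and the mean of both hybridizations. Counts were made in Python 3.11.15 (pandas 2.3.3, numpy 2.4.6) and plots in matplotlib 3.10.9.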

Additional observations from a re-analysis of the deposited data

How the results depend on the processing

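With each gene represented by its brightest probe or its probe mean, 0 prostaglandin genes were at least 2-fold changed under any alternative. The same was true of 0 genes of the related lists, though 3 dimmer PTGES3 probes were past 2-fold under each. The number of probes changed over the whole array did move, from 186 to 356 with the scanner software's own ratios, 354 with the deposited table, 343 with the mean of both hybridizations, and 415 to 594 with 1 hybridization left out. The count of prostaglandin genes higher in both hybridizations was 1 instead of 0 with no background correction, with median centring, with no filter on detection and with all probes of a gene averaged, and 1 to 3 in single hybridizations. The count lower in both was 2 instead of 5 with no background correction, 3 when both RNAs had to be well above background, and 6 to 8 in single hybridizations. The median log2 ratio, -0.04, became -0.07 with offset 0 and with flagged spots kept, -0.02 with no background correction, -0.10 with median centring, -0.13 with the filter on both RNAs, the software's ratios and the deposited table, and 0.01 with the mean of all probes, and was -0.05 and -0.04 in single hybridizations. The cause was not tested, except that single hybridizations and stricter filters use fewer data by construction. Values of single genes and probes moved by more than 1 SD of the 2 hybridizations in 41 of 315 comparisons. With both hybridizations in use, the mean by gene changed sign under 2 alternatives for PTGER4 and under 1 each for PTGIS and PTGS2. In hybridization 1 alone PTGER4 (0.09), PTGIS (0.13) and PTGES2 (-0.10) had the other sign, and in hybridization 2 alone PTGER3 (-0.01). Signal over background limits PTGES, PTGS2, PLA2G4A and the dimmer probes of PTGS1, HPGD and PTGER4. Most of their readings did not pass the highest negative control spot, though both Cy5 readings of the brighter PTGS2 probe did. No paired analysis was possible because the arrays hold 1 pair of RNAs and no result comes from a test.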

Other observations

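Genes of RNA-binding proteins known to act on PTGS2 mRNA included TIA1 and ZFP36L1, each lower in cl-sh3 by 1.5-fold or more with either dye. PTGS2 itself was read too near the detection limit to be set beside them. Of 6 such genes, 2 were lower in cl-sh3 in both hybridizations, 2 higher and 2 of opposite sign, with a median of 0.06. TIA1, a translational silencer, was the lowest by its brightest probe (log2 ratios -0.90 and -0.59), with -1.23 and -0.97 on a dimmer probe and -0.13 and 0.07 on another. ZFP36L1, which promotes decay of AU-rich mRNAs, was at -0.62 and -0.59, though its dimmer probe gave -0.04 and 0.27. KHSRP, also a decay factor, was the highest at 0.57 and 0.56, with 0.04 and 0.56 on its dimmer probe. The probes of these genes thus differed within a gene. A difference of at least 1.5-fold in both hybridizations was also met by 4.21% of all genes on the array.

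The lipoxygenase branch, which turns the same arachidonic acid into leukotrienes and hydroxy fatty acids, had small ratios. Its 13 kept genes had a median log2 ratio of 0.04, 5 of them higher in both hybridizations, 0 lower and 8 of opposite sign, and 0 reached 1.5-fold in both. They ran from ALOX5 (0.01 and -0.09) to ALOX12B (0.36 and, rounded, 0.00). Among all genes on the array, 30.9% were higher in both, 28.4% lower and 40.7% of opposite sign, and 4.21% reached 1.5-fold in both.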
